A study of Mus musculus and Homo sapiens with 67 samples.

Results

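The response of PSN1 cells to tazemetostat was read from 6 RNA-seq libraries out of 67 samples in the series: 3 of cells given tazemetostat and 3 of control cells, which were given DMSO. PSN1 is an established human pancreatic cancer cell line, and every library compared here came from that 1 line. Of 60564 genes in the deposited table, 13358 reached 1 FPKM (fragments per kilobase of transcript, scaled to the mapped fragments of the library) in at least 3 of the table's 12 libraries and were tested. The other 6 libraries of the table, 3 of cells given RMC-6236, an inhibitor of RAS in its active state, and 3 given RMC-6236 with tazemetostat (the combination), share the fit and serve below to read the drug's effect in a second set of libraries. SW1990, a further human pancreatic cancer line, and KPC cells, which are mouse pancreatic cancer cells, were treated in the same 4 arms and are set beside PSN1 at the end. No dose or length of treatment is given for any arm, and the labels do not say that the libraries of an arm came from separate cultures, so the p-values measure the spread between these libraries, which may be technical.

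Tazemetostat occupies the catalytic site of EZH2, the enzyme of polycomb repressive complex 2 (PRC2) that methylates lysine 27 of histone H3. PRC2 needs EED and SUZ12 beside EZH2 or its relative EZH1, and the trimethylated mark is found at silent genes, classically those of developmental transcription factors. In carcinomas EZH2 has also been described as holding down antigen presentation, chemokine and interferon-responsive genes.

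The libraries of each arm were alike. The lowest correlation between libraries of an arm, across genes on the log2(FPKM + 1) scale, was 0.995 in both arms, against at most 0.980 with any library of another arm. Control libraries had 11632 to 11653 genes at 1 FPKM or more and tazemetostat libraries had 12050 to 12113. Mitochondrially encoded transcripts made up 22.7 to 23.2% of the FPKM total in control and 23.5 to 23.9% with tazemetostat. Because FPKM values carry no read totals, sequencing depth is unknown. The keratins KRT7, KRT8, KRT18 and KRT19 with EPCAM and CDH1, which mark pancreatic cancer epithelium, were all at 1 FPKM or more in every one of the 6 libraries. Of 10 leukocyte markers, PTPRC, CD3E, MS4A1 and AIF1 were listed at 0 in all 6 libraries, and of 10 fibroblast markers COL1A2, THY1 and PDPN were. Other members were at 1 FPKM or more in all 6 libraries. These were 3 leukocyte markers (CD14, CD68 and LYZ) and 4 fibroblast markers (COL1A1, COL3A1, LUM and PDGFRA).

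Tazemetostat raised a small set of genes by a large amount and shifted many others by a little. With limma and a Benjamini-Hochberg adjusted p under 0.05, 6151 of the 13358 genes (46%) were called, 3152 higher (23.6%) and 2999 lower (22.5%). The 2 directions were near balance in number but not in size. The median change was 0.29 log2 units among the genes called higher and -0.18 among those called lower, and -0.0036 over all genes tested. All changes are differences of log2(FPKM + 1), a scale that understates the change of genes with low values. At 2-fold or more on that scale, 229 genes were higher (1.71% of those tested) and 10 were lower (0.0749%), and at 1.5-fold or more 677 were higher (5.07%) and 68 lower (0.509%). The values of the 3 tazemetostat and 3 control libraries did not overlap in any of the 229 or the 10, while over all genes tested 27.8% lay wholly higher and 27.7% wholly lower with tazemetostat. Just inside the 2-fold limit stood EPS8L3, NFKB2 and FOXA3, and just outside it ZNF618, SP6 and FGA, at changes between 0.995 and 1.004.

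The genes that rose by 2-fold or more were mostly silent or weak in control cells. Their median control level was 0.890 FPKM, 120 of the 229 were under 1 FPKM in control and 18 were at 10 FPKM or more, and their median with tazemetostat was 4.38 FPKM. The 10 genes that fell by 2-fold or more had a median control level of 20.5 FPKM. A gene under 1 FPKM in control cannot fall by 2-fold on the log2(FPKM + 1) scale, so that part of the contrast is set by the scale. At most 0.5 FPKM in all 3 control libraries and at least 1 FPKM in all 3 tazemetostat libraries was seen for 130 genes, and the opposite for 3. Of the 130, 17 reached 1 FPKM in the tazemetostat libraries alone and 111 in no library without tazemetostat, control or RMC-6236. These entered the test only because they were higher with the drug, and so did 94 of the 229.

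Among the genes that came on, GLUL (ENSG00000135821), which encodes glutamine synthetase and is one of the 111, was at 0.0163, 0.0309 and 0.0511 FPKM in the control libraries and at 4.89, 4.95 and 5.05 FPKM with tazemetostat. Its level was thus near 0 in each control library and close to 5 FPKM in each treated one (2.53 ± 0.04 log2 units ± standard error, limma adjusted p = 2.9e-13). SDC2, a heparan sulfate proteoglycan of the cell surface, stood at 0.213, 0.206 and 0.221 FPKM in control and 6.17, 6.62 and 6.14 FPKM with tazemetostat (2.59 ± 0.07, limma adjusted p = 1.9e-11). NEO1 (neogenin), a receptor for netrins and repulsive guidance molecules, went from 0.330, 0.261 and 0.367 FPKM to 6.09, 6.57 and 6.71 FPKM (2.499 ± 0.05). In all 3 genes every control library was under 1 FPKM and every tazemetostat library above 4. The zinc finger gene ZNF467 (2.56), the GTPase-binding scaffold IQGAP2 (2.21), CD24, a glycosylated surface protein (2.15), the matrix proteoglycan VCAN (2.06) and the calcium-binding S100A8 (2.03) behaved alike, with control means of 0.0397 to 0.401 FPKM and tazemetostat means of 4.07 to 5.15 FPKM. In the opposite direction SBK3, a kinase gene, was the 1 gene with a regular symbol, at 1.08 FPKM in control and 0.356 FPKM with tazemetostat (limma adjusted p = 0.0032).

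Several of the largest rises among genes at 5 FPKM or more were in genes of secreted or surface proteins. MMP1 (ENSG00000196611), the interstitial collagenase, was at 20.6, 20.9 and 20.2 FPKM in control and at 228, 236 and 244 FPKM with tazemetostat. The change was 3.46 ± 0.07 log2 units (limma adjusted p = 8.9e-12), the largest among called genes with a pseudocount of 1. With a pseudocount of 0.1 MMP1 was at 3.51 and genes near 0 in control passed it, GLUL at 5.26 and SDC2 at 4.36. PI3 (elafin), an inhibitor of neutrophil elastase, rose from 17.3, 16.5 and 13.9 FPKM to 109, 115 and 112 FPKM (2.74 ± 0.07). Its relative SLPI rose from 7.04 ± 0.67 to 32.2 ± 1.7 FPKM (mean ± SD, n = 3; 2.05 ± 0.08). S100A9, which pairs with S100A8 to form calprotectin, rose from 11.2, 12.4 and 12.1 FPKM to 82.0, 80.8 and 81.3 FPKM (2.68 ± 0.06, limma adjusted p = 3.7e-11). BMP7, a ligand of the bone morphogenetic protein family, rose from 2.19 ± 0.10 to 15.1 ± 0.82 FPKM, SIRPA, the receptor for CD47, from 1.05 ± 0.11 to 8.95 ± 0.38 FPKM, and LYZ (lysozyme) from 2.62 ± 0.13 to 19.1 ± 0.79 FPKM. None of these genes had a control library within the range of the tazemetostat libraries, which for most of them was part of the rule for naming them. LYZ is also a leukocyte marker, and the summed level of the 10 leukocyte markers was 18.1 to 21.4 FPKM in control and 38.9 to 41.9 FPKM with tazemetostat (LYZ and CD68 rose, CD14 fell). The part of such cells in these values was not tested, and the pan-leukocyte marker PTPRC was at 0.

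**Figure D1:**
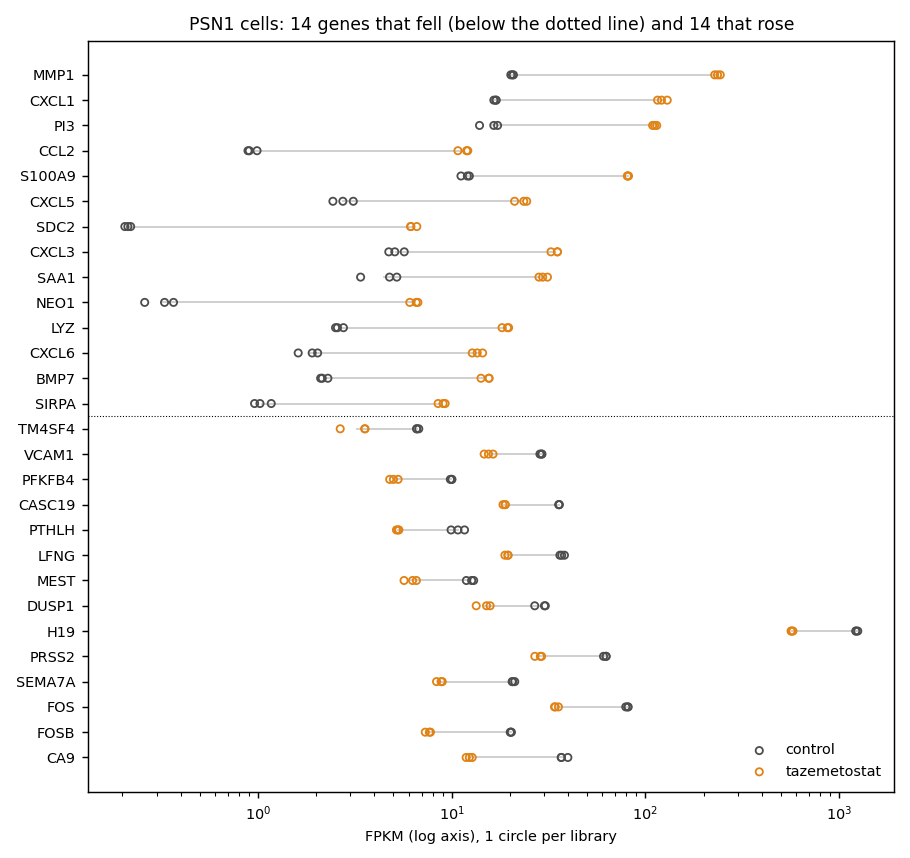
FPKM (horizontal log axis) of the 14 genes with the largest rise and the 14 with the largest fall among called genes with at least 5 FPKM in an arm, in each control and tazemetostat library (1 circle per library, grey line between the arm means). Arms that do not overlap were part of the rule by which the 28 were picked. The gap is widest in SDC2 and NEO1, and H19 has the highest level of the 28.

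Chemokine and cytokine genes rose as a group. Of 27 tested, 23 were called higher and 2 lower, with a median change of 0.99 log2 units, and 13 rose by 2-fold or more. All 6 neutrophil-attracting CXC chemokines named here, which signal through CXCR1 and CXCR2, rose. CXCL1 (ENSG00000163739) was at 17.0, 16.5 and 16.9 FPKM in control and 130, 121 and 116 FPKM with tazemetostat (2.79 ± 0.04, limma adjusted p = 1.1e-13). CXCL5 rose from 3.11, 2.44 and 2.75 FPKM to 23.6, 24.4 and 21.2 FPKM (2.68 ± 0.09). CXCL8 (interleukin 8) rose from 21.2, 20.3 and 20.4 FPKM to 87.3, 87.6 and 92.2 FPKM (2.06 ± 0.04). In each of these 3 genes all tazemetostat libraries lay far above all control libraries. CXCL3 (2.52), CXCL6 (2.36) and CXCL2 (1.91) moved with them, though CXCL1, CXCL2 and CXCL3 are close paralogs whose reads the authors' counting could have split.

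Chemokines for other cells rose too. CCL2, which draws monocytes, was at 0.991, 0.890 and 0.903 FPKM in control and at 10.79, 11.96 and 12.13 FPKM with tazemetostat (2.71 ± 0.08, limma adjusted p = 6.6e-11). CCL20, the ligand of CCR6, rose from 1.07 ± 0.097 to 8.91 ± 0.54 FPKM. The interferon-responsive ligands of CXCR3 on T cells rose as well, CXCL10 from 1.65 ± 0.16 to 9.47 ± 1.1 FPKM (1.98 ± 0.07) and CXCL11 by 1.71 ± 0.10. Among cytokines, IL6 rose by 1.58, IL32 by 1.81, IL33 by 1.13 and IL1B by 0.96. Those that fell were CSF1, the macrophage growth factor, from 29.1 ± 0.62 to 18.0 ± 0.20 FPKM (-0.66 ± 0.02), and IL18, from 57.0 ± 0.93 to 52.0 ± 0.45 FPKM.

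Feedback inhibitors and targets of NF-kB, a list added after the values were seen, were called higher in 19 of 20 tested members and lower in none, with a median of 0.56. TNFAIP3 (A20), which removes ubiquitin chains that carry the signal to NF-kB, was at 4.88, 4.78 and 4.73 FPKM in control and 17.3, 16.9 and 16.9 FPKM with tazemetostat (1.64 ± 0.03, limma adjusted p = 3.6e-13). BIRC3 rose by 1.33, the RNase ZC3H12A by 1.22 and the inhibitor NFKBIA by 0.99. Among the subunits themselves NFKB2 (1.002) and RELB (0.89) rose, while RELA was at 13.99 ± 0.66 and 14.96 ± 0.16 FPKM (0.09 ± 0.03, limma adjusted p = 0.034), a call lost under 9 alternatives, with an adjusted p of up to 0.144 without control replicate 3.

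Complement and acute phase genes, which the liver makes in inflammation, rose in 22 of 24 tested, with a median of 0.95, and fell in 1. CFB (complement factor B) was at 11.3, 11.5 and 11.3 FPKM in control and 45.9, 45.6 and 48.3 FPKM with tazemetostat (1.94 ± 0.02, limma adjusted p = 7.3e-14). C1S and C1R, the proteases of the first complement component, rose by 2.01 and 1.80, and C3, on which all complement routes converge, from 6.35 ± 0.15 to 20.4 ± 0.33 FPKM. The serum amyloid gene SAA1 rose from 3.39, 5.22 and 4.78 FPKM to 29.6, 28.3 and 31.3 FPKM (2.504 ± 0.10), with its near-identical copy SAA2 at 1.76, between which reads could have been split. Lipocalin LCN2 rose by 1.503 and the fibrinogen chains FGB, FGG and FGA by 1.39, 1.36 and 0.99. CD46, a surface protein that protects cells from complement, was the 1 member that fell.

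**Figure D2:**
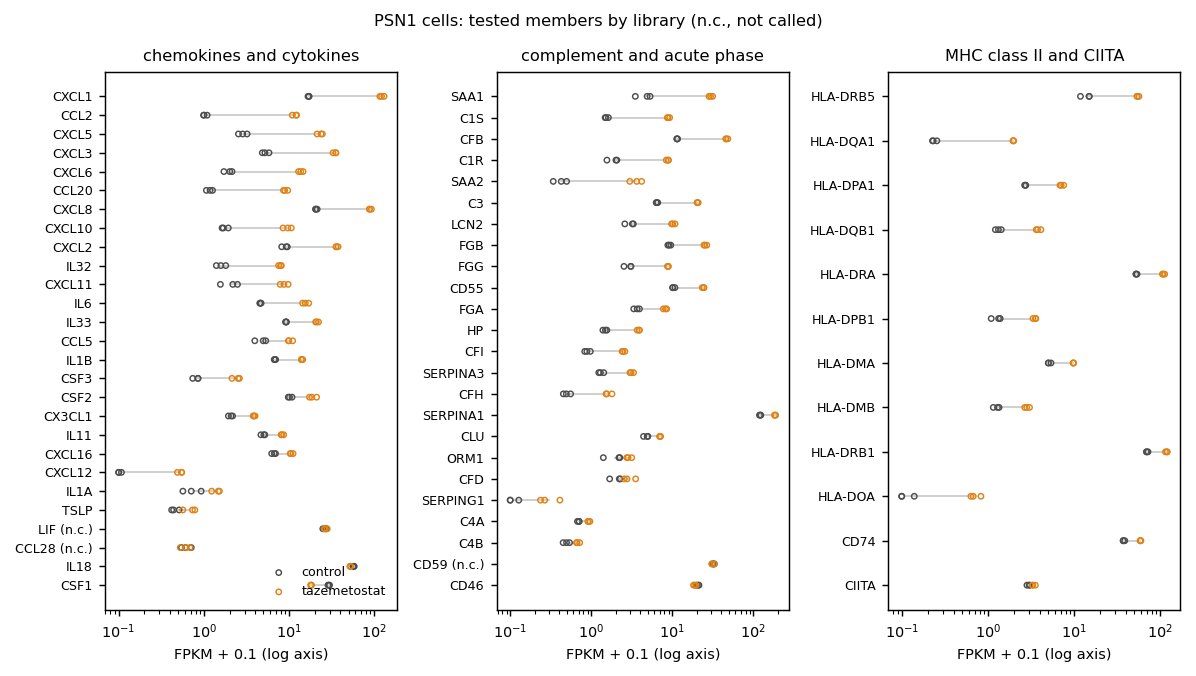
FPKM + 0.1 (horizontal log axes) of each tested member of 3 gene lists, 1 circle per library with a grey line between the arm means; n.c. marks members not called in limma. Tazemetostat circles lie to the right in 23 of 27 chemokines and cytokines, 22 of 24 complement and acute phase genes and all 12 genes of the MHC class II list.

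All 12 tested members of the MHC class II list rose, with a median of 0.92, and 6 of them by 2-fold or more. With the filter over the 6 compared libraries 11 were tested, and all 11 were higher. Leaving out a combination library also left 11, so a member passed the main filter only through the combination libraries, where it was high. Class II molecules present peptides to CD4+ T cells and are made by many epithelia only under interferon gamma. HLA-DRA, the nearly invariant DR alpha chain, was at 52.5, 53.9 and 52.4 FPKM in control and 106, 113 and 108 FPKM with tazemetostat, so control PSN1 cells already carried class II RNA. The change was 1.03 ± 0.03 (limma adjusted p = 1.9e-10). HLA-DRB5 rose by 1.92 ± 0.07 and HLA-DRB1 from 70.5 ± 1.6 to 119 ± 2.9 FPKM (0.75 ± 0.03), with the limit that these paralogs can exchange reads. HLA-DQA1 rose by 1.34, HLA-DPA1 by 1.16, HLA-DQB1 by 1.09, the peptide loading factors HLA-DMA and HLA-DMB by 0.83 and 0.79, and the invariant chain CD74 from 37.7 ± 0.92 to 59.1 ± 0.66 FPKM. CIITA, the coactivator on which class II transcription depends, moved least, from 2.74, 2.96 and 2.92 FPKM to 3.22, 3.20 and 3.46 FPKM (0.15 ± 0.04, limma adjusted p = 0.0071).

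MHC class I and peptide loading genes changed less, with 13 of 19 higher, 2 lower and a median of 0.17. HLA-B rose from 49.7, 47.2 and 48.3 FPKM to 116, 113 and 117 FPKM (1.23 ± 0.02, limma adjusted p = 2.8e-12). The nonclassical HLA-F rose by 0.81, HLA-C by 0.63 and HLA-E by 0.43. The shared light chain B2M rose by 0.17 and the peptide transporter subunit TAP1 by 0.22, while NLRC5, the class I coactivator, fell by 0.20. Among immune checkpoint and surface ligands, 11 of 17 rose and 5 fell. The NKG2D ligands MICB (0.86) and ULBP2 (0.78) and the costimulatory ligand TNFSF9 (0.85) rose most. The ligands of the inhibitory receptor PD-1 fell: CD274 (PD-L1) was at 1.75, 1.74 and 1.48 FPKM in control and 0.850, 0.792 and 1.11 FPKM with tazemetostat (-0.47 ± 0.07, limma adjusted p = 0.00015), and PDCD1LG2 (PD-L2) fell by 0.56.

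Interferon-stimulated genes rose in 41 of 46 tested, fell in none, and had a median of 0.60 with 11 at 2-fold or more. RSAD2 (viperin), an antiviral enzyme, rose from 1.241, 1.056 and 1.503 FPKM to 6.03, 6.79 and 6.67 FPKM (1.73 ± 0.07, limma adjusted p = 8.8e-10). Its neighbour in function CMPK2, a mitochondrial nucleotide kinase, rose by 1.34, IFI27 by 1.29, the GTPase MX1 by 1.16, and OAS1 and OAS2, which make the activator of RNase L, by 1.06 each. Levels stayed modest for most of them, though IFITM1 went from 36.9 ± 1.7 to 79.8 ± 8.1 FPKM and IFI6 from 16.5 ± 0.58 to 36.1 ± 1.9 FPKM. The 5 members not called were IRF1, GBP1, IFIT5, EPSTI1 and IRF9. IRF1 stood at 5.43 ± 0.26 and 5.09 ± 0.15 FPKM (limma adjusted p = 0.094). Nucleic acid sensors were mixed, with 5 of 11 higher and 1 lower, led by IFIH1 (MDA5, 1.06) and RIGI (0.73), which are themselves interferon-stimulated, then STING1 (0.60) and TLR3 (0.59).

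The RNA of the drug's target was not called. EZH2 (ENSG00000106462) was at 15.8, 16.1 and 15.4 FPKM in control and at 14.4, 15.3 and 16.3 FPKM with tazemetostat, the arms overlapping (-0.04 ± 0.05, limma adjusted p = 0.47). Of 13 tested PRC2 genes, 2 were called higher and 3 lower, shares near those of all genes. The core subunit SUZ12 fell from 15.8, 17.2 and 16.1 FPKM to 12.8, 13.4 and 12.4 FPKM (-0.32 ± 0.05, limma adjusted p = 8.5e-05), and MTF2 and RBBP7 fell by 0.21 and 0.16. EPOP, an accessory subunit that links PRC2 to elongin, rose from 7.76 ± 0.28 to 11.6 ± 0.22 FPKM (0.52 ± 0.05). EED (-0.05) and EZH1 (0.09) were not called. Of 21 genes of PRC1, the complex that binds the mark and ubiquitinates histone H2A, 8 were higher (38.1%) and 2 lower (9.52%). Over all genes tested the shares were 23.6% and 22.5%. BMI1 (0.50), PHC1 (0.45) and RING1 (0.33) led the rise.

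Most developmental transcription factors, the classical PRC2 targets, stayed under 1 FPKM. Of 115 listed outside the HOX clusters, 32 were tested, of which 18 were higher and 3 lower with a median of 0.13, and the other 83 were below the filter with no value above 0.977 FPKM in any of the 6 libraries. With no filter on low values 94 could be tested, of which 34 were called higher and 3 lower, so genes under 1 FPKM were among the risers. Over all 33318 genes tested in that setting, 3754 were higher and 2601 lower. The homeobox gene MSX2 rose from 2.83, 3.17 and 2.59 FPKM to 8.13, 7.01 and 7.36 FPKM (1.14 ± 0.07, limma adjusted p = 4.4e-08). CDX2, an intestinal homeobox factor, was at 0.0156 ± 0.015 FPKM in control and 1.05 ± 0.065 FPKM with tazemetostat, and GSC (goosecoid) was listed at 0 in all 3 control libraries and at 1.02, 1.40 and 0.845 FPKM with tazemetostat. Both reach 1 FPKM in tazemetostat or combination libraries alone, so they passed the filter only because they were higher there. FOXF1, SOX7 and GATA2 rose by 0.87, 0.86 and 0.80. Of 39 HOX genes 19 were tested, with 7 higher (36.8%, against 23.6% of all genes tested) and 2 lower (10.5%, against 22.5%). With the filter over the 6 compared libraries 16 were tested, 5 higher and 2 lower, so some risers passed the main filter only with the help of the other libraries. The risers included HOXC13, HOXC4, HOXC8 and HOXC5 (0.53 to 0.89), and the fallers were HOXB3 (-0.36) and HOXB6 (-0.16). Cancer-testis genes stayed below the filter in 38 of 41 cases, and the 3 tested, MAGEA6, MAGEA12 and MAGEA3, rose by 0.87, 0.70 and 0.41, with the limit that MAGEA paralogs can exchange reads.

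Of 31 tested genes that have been reported elsewhere as silenced by EZH2 in tumours, 17 were higher and 8 lower, with a median of 0.20. The cyclin-dependent kinase inhibitors CDKN1A (p21) and CDKN1C (p57) were among those that rose. CDKN1A went from 2.99, 3.25 and 2.98 FPKM to 9.999, 9.795 and 9.367 FPKM (1.40 ± 0.04, limma adjusted p = 4.9e-11), and CDKN1C from 2.59, 2.57 and 2.54 FPKM to 7.07, 7.09 and 7.59 FPKM (1.21 ± 0.03). CDKN1B (0.26) and CDKN2C (0.24) rose less, and CDKN2B fell by 0.27. E-cadherin, CDH1, rose from 1.45 ± 0.098 to 2.23 ± 0.16 FPKM (0.40 ± 0.05). Of the p53 targets, 11 of 21 were higher (52.4%, against 23.6% of all genes tested) and 1 lower (4.76%, against 22.5%). GDF15 (0.55), BBC3 (PUMA, 0.45) and FDXR (0.45) were among the risers.

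Signalling lists held genes of both directions. In the WNT list 10 of 18 rose and 3 fell, and the 3 that rose most were inhibitors or feedback targets: SFRP5, a secreted antagonist, from 1.28 ± 0.23 to 7.65 ± 0.23 FPKM (1.93 ± 0.08), AXIN2 by 1.33 and NKD2 by 1.20, followed by the ligand WNT4 at 1.09. In the TGF-beta and BMP list 16 of 31 rose (51.6%) and 10 fell (32.3%), against 23.6% higher and 22.5% lower of all genes tested. BMP7 (2.34) and BMP6 (0.86) are ligands, and BAMBI (1.02) and NOG (0.96) are antagonists of the same pathway. Of 58 neuronal and synaptic genes 39 were below the filter, and of the 19 tested 10 rose, 3 fell and 6 were not called. CALB2, SYT7 and CPLX1 rose most, by 1.48, 1.298 and 1.20.

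The genes that fell were better expressed, in part because of the limit of the scale given above, and moved less. CA9, the carbonic anhydrase induced by hypoxia, was at 39.9, 36.9 and 36.9 FPKM in control and 11.9, 12.8 and 12.4 FPKM with tazemetostat (-1.54 ± 0.05, limma adjusted p = 1.3e-10). H19, an imprinted noncoding RNA, fell from 1226, 1222 and 1251 FPKM to 579, 566 and 570 FPKM (-1.11 ± 0.01, limma adjusted p = 1.1e-13). No library of either gene came near the range of the other arm. IGF2, the imprinted growth factor next to H19, fell from 52.8 ± 1.1 to 41.5 ± 0.62 FPKM (-0.34 ± 0.03), and MEST, another imprinted gene, from 12.6 ± 0.56 to 6.19 ± 0.46 FPKM (-0.92 ± 0.05). Other imprinted genes did not share the direction: over 12 tested, 4 were higher (33.3%), CDKN1C among them, and 3 were lower (25%). Over all genes tested 23.6% were higher and 22.5% lower, so these few genes do not set imprinted genes apart.

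FOS and FOSB, immediate early subunits of the AP-1 factor, fell by more than any other transcription factor named here. FOS was at 81.2, 81.7 and 79.4 FPKM in control and 34.0, 34.3 and 35.6 FPKM with tazemetostat (-1.20 ± 0.02, limma adjusted p = 3.5e-12), and FOSB went from 20.2 ± 0.14 to 7.59 ± 0.24 FPKM (-1.305 ± 0.05). EGR1 fell by 0.51, JUN by 0.30 and the phosphatase DUSP1 by 0.94. The immediate early list as a whole, added after the values were seen, was split, with 9 of 23 higher and 9 lower: BTG2 (0.69), IER3 (0.56) and ATF3 (0.36) rose. The other genes with the largest falls were SEMA7A (-1.17), a membrane semaphorin, the trypsinogen PRSS2 (-1.11), LFNG (-0.91), which modifies Notch, PTHLH (-0.91), the parathyroid hormone-related peptide, PFKFB4 (-0.86), which sets the flux of glycolysis, the adhesion molecule VCAM1 (-0.86) and TM4SF4 (-0.85). Among the 10 genes that fell by 2-fold or more were also the low genes PLIN4 (-1.36), HYAL4 (-1.34), MIR4648 (-1.21) and CST4 (-1.01), with control means of 2.03 to 3.95 FPKM. PRSS2 has close paralogs in the trypsinogen cluster, and its level is read with that limit.

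Growth and metabolism lists fell by small steps. Glycolysis and hypoxia genes were lower in 16 of 23 and higher in 3, with a median of -0.22. After CA9 the largest falls were in PDK1 (-0.59), ANGPTL4 (-0.49) and the glucose transporter SLC2A1, which went from 45.5, 46.5 and 45.3 FPKM to 32.8, 33.1 and 33.5 FPKM (-0.45 ± 0.02). PGK1 fell by 0.30. ENO1 and LDHA fell by 0.07 and 0.05 and lose the call when the variance is moderated without trend and robust options (limma adjusted p = 0.05 and 0.093). Ribosome biogenesis genes were lower in 15 of 22 and higher in none, with a median of -0.12 and POLR1B and UTP20 furthest from 0, at -0.20 each. In the second set of libraries described below the same list went the other way, with 7 higher and 3 lower. Cell cycle genes were lower in 20 of 36 and higher in 3, with a median of -0.12. The replication genes PCNA (-0.32), MCM3 (-0.31) and MCM4 (-0.29) and the phosphatase CDC25A (-0.31) fell, while the proliferation marker MKI67 stood at 17.1 ± 0.18 and 17.2 ± 0.58 FPKM (limma adjusted p = 0.95).

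YAP/TEAD targets were lower in 11 of 19 and higher in 5, with tissue factor F3 (-0.58), the receptor kinase AXL (-0.55), CCN1 (-0.54) and CCN2 (-0.45) falling. RAS-MAPK output genes were lower in 10 of 23 (43.5%, against 22.5% of all genes tested) and higher in 6 (26.1%, near the 23.6% of all genes). FOS, SPRY1 (-0.56) and EGR1 fell, SPRED3 (0.61) and IER3 rose, and DUSP6 (-0.07) and SPRY4 (-0.11), feedback inhibitors of ERK, were not called, though both were called lower after rescaling. Collagen, laminin and matrix genes went both ways, 13 higher (35.1%) and 12 lower (32.4%) of 37, against 23.6% and 22.5% of all genes tested. FN1 (fibronectin) fell from 112 ± 2.5 to 70.5 ± 1.3 FPKM (-0.66 ± 0.02) and COL6A3 by 0.73, while TNC rose by 0.62 and NID1 by 0.97. The summed level of the 10 fibroblast markers was 29.5 to 29.8 FPKM in control and 43.6 to 45.2 FPKM with tazemetostat, carried by LUM (0.94) and PDGFRA (0.76), with COL3A1 falling (-0.81) and COL1A2, THY1 and PDPN at 0. The part of such cells in the matrix values was not tested.

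Among lists that rose by small steps, cholesterol and fatty acid synthesis genes were higher in 21 of 28 and lower in 3, with a median of 0.20. INSIG1, a sterol sensor, went from 11.6, 11.8 and 11.7 FPKM to 20.1, 20.0 and 20.8 FPKM (0.74 ± 0.03), HMGCS1 rose by 0.37 and SCD by 0.27. NRF2 targets with glutathione and aldehyde dehydrogenase genes were higher in 16 of 21 and lower in 2, with ALDH1A3 at 0.78, GSTP1 at 0.68 and AKR1C3 at 0.68, and AKR1B10 falling by 0.88. All 5 tested metallothioneins rose (0.17 to 0.70), MT2A from 1044 ± 20 to 1293 ± 47 FPKM, with the limit that these genes are close copies. Epithelial identity genes were higher in 9 of 17 and lower in 4, with EHF (1.23) and SPINT1 (0.97) rising and KRT7 falling from 82.6 ± 1.7 to 49.0 ± 0.67 FPKM (-0.74 ± 0.02). Mesenchymal identity genes went 4 each way of 16 (25% each), near the shares of all genes tested (23.6% higher and 22.5% lower). Of the genes that mark the classical subtype of pancreatic cancer, 8 of 15 rose and 4 fell: LYZ, MUC13 (1.06) and FOXA3 (1.004) rose most, and the trefoil factors TFF2 (-0.47) and TFF3 (-0.39) fell most. Of those that mark the basal-like subtype, 5 of 10 rose and 3 fell, with KRT6B (0.65) among the risers and SLC2A1 among the fallers.

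Apoptosis genes of the BCL2 family went both ways, 6 higher (42.9%) and 4 lower (28.6%) of 14, against 23.6% and 22.5% of all genes tested. The proapoptotic BBC3 (0.45) and PMAIP1 (0.32) rose. The protective BCL2L1 (BCL-XL) fell from 40.0 ± 0.94 to 25.9 ± 0.27 FPKM (-0.61) and MCL1 from 233 ± 2.1 to 189 ± 1.7 FPKM (-0.30), while BCL2A1, a protective member, rose from 0.265 to 1.15 FPKM (0.78). Receptor tyrosine kinases and EGFR ligands were higher in 14 of 28 (50%) and lower in 9 (32.1%). FGFR4 (0.81) and FGFR3 (0.76) rose where FGFR1 fell (-0.38), and the EGFR ligand HBEGF fell by 0.54.

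Cornified envelope and S100 genes were higher in 7 of 13 and lower in 3, with SBSN (suprabasin) at 1.14 after the members named above and S100A6 going from 261 ± 6.5 to 324 ± 8.3 FPKM (0.31). Genes of ATF4 and the unfolded protein response were higher in 12 of 24 and lower in 4, led by the chaperone cofactor DNAJB9 (0.71), while the serine synthesis enzyme PSPH fell by 0.32. Lysosome and autophagy genes were higher in 10 of 28 (35.7%) and lower in 5 (17.9%), against 23.6% and 22.5% of all genes tested. The autophagy receptor SQSTM1 went from 78.9 ± 0.36 to 119 ± 0.55 FPKM (0.59). Nuclear genes of oxidative phosphorylation were higher in 9 of 21 (42.9%) and lower in 7 (33.3%), with SDHA falling most (-0.45). Of the 13 mitochondrially encoded protein genes 5 were higher (38.5%) and 3 lower (23.1%), the lower share near that of all genes tested (22.5%). Chromatin factors that oppose PRC2 moved little, with 1 of 14 higher (7.14%) and 4 lower (28.6%). The 1 that rose was CREBBP (0.10), a call lost after rescaling, and the H3K27 demethylase KDM6B was not called (0.08).

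**Figure D3:**
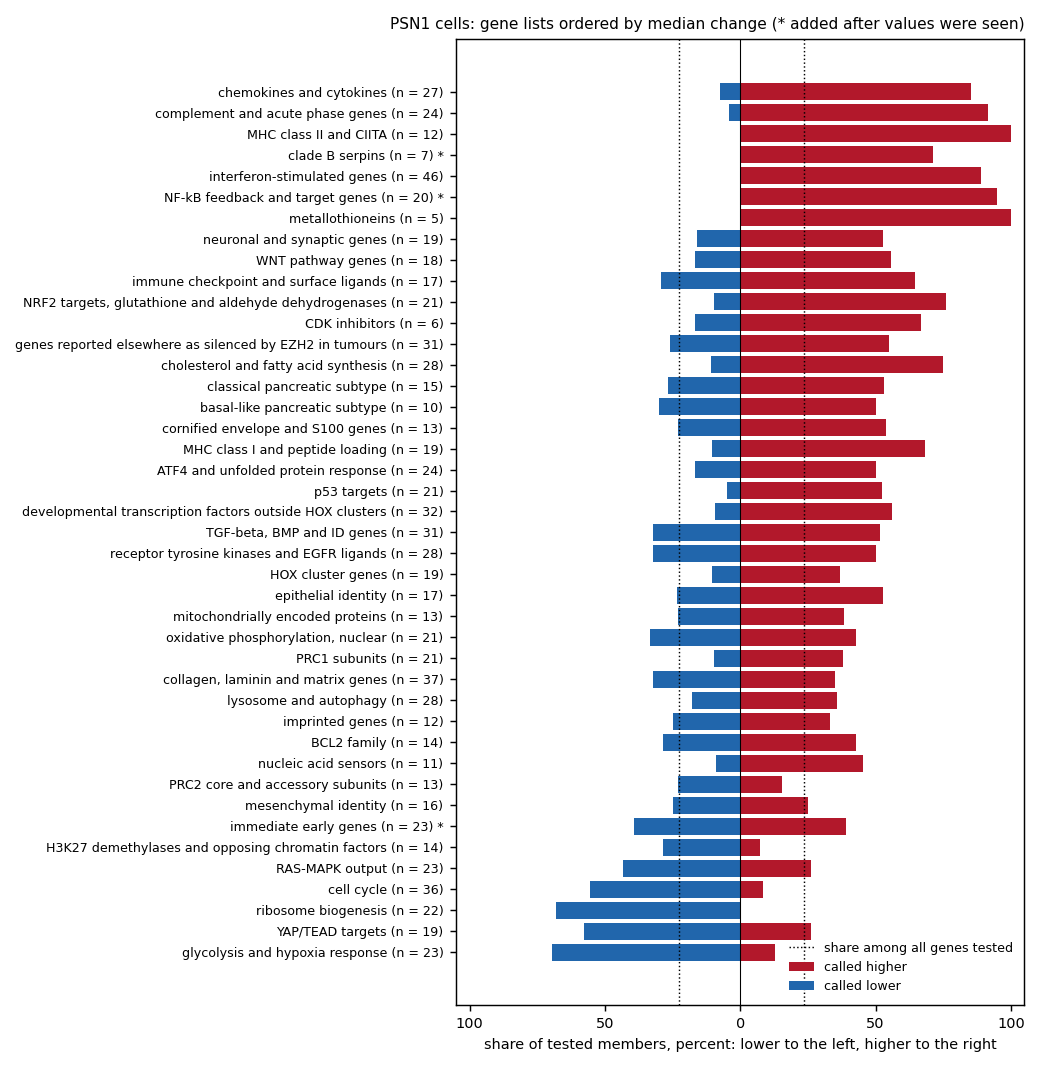
Share of the tested members of each gene list called higher (red, to the right) and lower (blue, to the left) with tazemetostat in PSN1 cells, in percent, for lists with at least 5 tested members, ordered by median change; dotted lines mark the shares among all genes tested, 23.6% higher and 22.5% lower. Chemokines and cytokines, complement and acute phase genes and MHC class II have the highest medians (0.92 to 0.99), and glycolysis and hypoxia has the lowest (-0.22).

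The response was then read in libraries that share none with the comparison above, as the difference between the combination and RMC-6236 alone, that is, the addition of tazemetostat to cells whose active RAS was inhibited. There 3213 genes were higher (24.1% of the 13358) and 4025 lower (30.1%). Of all 3152 genes called higher with tazemetostat alone, 2207 (70%) were higher again, and of the 2999 called lower, 2195 (73.2%) were lower again, while 293 genes were called in opposite directions. Of the 229 genes that rose by 2-fold or more with tazemetostat alone, 225 (98.3%) were higher in this second comparison too, 169 of them by 2-fold or more, which is 73.8% of the 229 and 42.1% of the 401 genes that rose by 2-fold or more there (3% of those tested). All 10 genes that fell by 2-fold or more were lower again, 6 of them by 2-fold or more, a size reached downwards by 0.389% of the genes tested. Of the 229, 94 reached 1 FPKM in no control or RMC-6236 library. They entered the test through libraries with tazemetostat and had little room to be called lower here, and the agreement without them was not counted. The 229 had a median change of 1.33 without RMC-6236 and 1.36 with it. Of the lists, MHC class II (12 of 12 higher, a member of which was tested only because it was high in the combination) had a like count in these libraries. So did interferon-stimulated genes (42 of 46), complement and acute phase genes (21 of 24) and chemokines and cytokines (20 of 27 higher, 4 lower). Cell cycle genes were lower in 32 of 36, and CDK inhibitors, of which 4 of 6 rose with tazemetostat alone, were lower in 5 of 6. Further lists lost or turned their lean. Genes reported elsewhere as silenced by EZH2 went from 17 higher and 8 lower to 12 and 14. Classical subtype genes went from 8 and 4 to 6 and 8, and HOX genes from 7 and 2 to 6 and 7. Receptor tyrosine kinases and EGFR ligands went from 14 and 9 to 9 and 14, and RAS-MAPK output from 6 and 10 to 8 and 7.

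The 4 of the 229 that were not higher in the second comparison are CDKN1A, CDKN1C, AQP3 and GJA1, named after their values were seen. AQP3, a water and glycerol channel, rose from 16.6, 17.2 and 15.4 FPKM to 41.9, 42.4 and 41.1 FPKM with tazemetostat alone, and was at 19.1 FPKM with RMC-6236 and 8.90 FPKM with the combination (-1.02, limma adjusted p = 2.5e-09). CDKN1A was at 14.9 FPKM with RMC-6236 and 12.4 FPKM with the combination (-0.25), and CDKN1C at 103 FPKM in the combination, with a difference of 0.05 from RMC-6236 alone (limma adjusted p = 0.19). GJA1 (connexin 43) rose from 36.4 ± 1.1 to 77.5 ± 1.2 FPKM with tazemetostat alone and was at 41.9 and 40.0 FPKM in the 2 arms with RMC-6236.

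The size of the change differed with and without RMC-6236 for many genes. The difference between the 2 tazemetostat effects, tested as an interaction, was called in 3157 genes (23.6%), 1309 positive (9.8%) and 1848 negative (13.8%). After rescaling of the libraries by their median ratio the balance turned, with 1816 positive and 1471 negative. Among the 229 it was called in 143, with the rise larger under RMC-6236 in 73 and smaller in 70. CD24 rose from 0.146 to 4.07 FPKM without RMC-6236 and from 1.06 to 43.2 FPKM with it (interaction 2.28, limma adjusted p = 6.5e-10). GLUL rose from 0.0369 to 12.4 FPKM with it (1.16). For genes this low the size of the interaction depends on the pseudocount of 1. In CD24 that constant holds down the change from 0.146 FPKM more than the change from 1.06 FPKM. Interactions of single genes were not followed with a pseudocount of 0.1. HLA-DRA and CIITA also rose more under RMC-6236, to 205 and 6.14 FPKM in the combination (interactions 0.72 and 0.60). Smaller rises under RMC-6236 were seen for CXCL5 (-0.98), MMP1 (-0.91) and the protease inhibitor SERPINB2 (-1.52). For CXCL1, CXCL8, PI3, HLA-B, MX1 and RSAD2 the interaction was not called, with values between -0.28 and 0.19 log2 units.

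**Figure D4:**
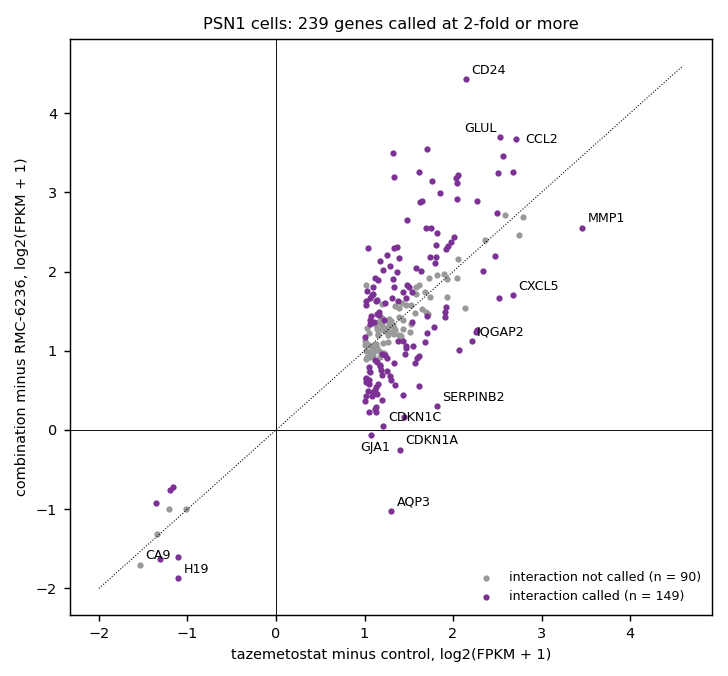
Tazemetostat minus control (horizontal axis) against combination minus RMC-6236 (vertical axis), both as log2(FPKM + 1), for the genes called at 2-fold or more in the first, each point 1 gene; purple points had a called interaction (149 genes) and the dotted line marks equal change. The points spread to both sides of the line, and AQP3, CDKN1A and GJA1 lie below 0 on the vertical axis.

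In the other cell lines given the same drug, the genes that rose in PSN1 were called higher more often than genes at large but seldom by as much. Of 145 of the 229 that were tested in SW1990 cells, 100 (69%) were called higher, where 22.1% of the genes tested in both lines were, and 11 were called lower. Over all genes tested in SW1990 cells 23.1% were higher (2982 genes), 14.4% lower (1854) and 0.589% higher by 2-fold or more, and after rescaling 2669 were higher and 2688 lower. In both lines 11 rose by 2-fold or more, 7.59% of the 145 and 18.6% of the 59 in SW1990. In KPC cells 92 could be matched by symbol, of which 54 (58.7%, against 19%) were higher and 13 lower, and 3 reached 2-fold in both, 3.26% of the 92 and 7.14% of the 42 in KPC cells. Over all genes tested in KPC cells 18.6% were higher, 25.5% lower and 0.764% higher by 2-fold or more. No difference between the lines was tested, since the tables were deposited separately.

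HLA-DRA went from 2.45 to 19.2 FPKM in SW1990 cells (2.56, limma adjusted p = 5.4e-10) and HLA-B from 258 to 520 FPKM (1.01), both called as in PSN1. MMP1 (1.45), PI3 (1.12) and NEO1 (1.31) also rose in SW1990 cells. CXCL1 (0.791 and 0.721 FPKM, limma adjusted p = 0.67) and CXCL8 (1.16 and 1.03 FPKM, limma adjusted p = 0.53) were low and not called there, CXCL5 fell by 0.47 and TNFAIP3 by 0.26, and CCL2 was below the filter. GLUL, near 0 in control PSN1 cells, was at 25.5 FPKM in control SW1990 cells and fell to 19.6 FPKM. None of the 4 tested genes of the 10 that fell by 2-fold or more in PSN1 was lower in SW1990 cells.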

How the data were processed

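RNA was extracted with RNAiso Plus, built into strand-specific mRNA libraries and read on a NovaSeq instrument, per the labels' protocols. The submitters' processing notes name FastQC 0.11.2, STAR 2.5.3a, StringTie 1.3.1c and the build hg38. The strand used in counting is not given in the sources used here, so antisense and overlapping genes cannot be told apart. The authors deposited FPKM values, with each cell line in its own file, and these were used as deposited. Groups came from the sample titles, and 0 value columns were left unmapped.

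Values were taken to log2(FPKM + 1). In R 4.3.3 (statmod 1.5.0, with tables read by data.table, version 1.17.8), limma 3.58.1 fitted 1 mean per arm over the 12 libraries of a table to genes at 1 FPKM or more in at least 3 of them, with eBayes trend and robust options. P-values are two-sided and adjusted over all genes tested in that table, with a threshold of 0.05. The steps were tested on simulated data. Figures were drawn with matplotlib 3.10.9.

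The genes, the lists and the rule for naming genes were chosen with earlier results of these data known, and 3 lists (NF-kB, immediate early, clade B serpins) and some single genes were added after these values were seen. Named by rule are EZH2, the 14 called genes with the largest rise and fall (arms not overlapping, 5 FPKM or more in the higher arm, every library above 0), up to 8 genes each way at 0.5 FPKM or less in 1 arm and 1 FPKM or more in the other, and up to 4 members of each list. Runs of neighbouring genes and gene positions were not analysed here, and no human sequence was used. Alternatives were a pseudocount of 0.1, no filter, the filter over the 6 compared libraries, rescaling by the median ratio, the replicate block, plain eBayes, a fit to the compared arms alone, and leaving out each library. Some single genes are not reported here.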

Additional observations from a re-analysis of the deposited data

Results flagged for a closer look

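Of the 28 genes with the largest rise or fall, 21 had a called interaction, that is, a tazemetostat change that differed with and without RMC-6236 in limma (adjusted p under 0.05), where 23.6% of all genes tested had one. The 28 were picked for the size of the change without RMC-6236, which is one term of the interaction. Among genes that rose with tazemetostat, the rise was larger under RMC-6236 for CCL2 (0.96 log2 units), SAA1 (0.74), SIRPA (0.61), S100A9 (0.58) and NEO1 (0.24). It was smaller for CXCL5 (-0.98), MMP1 (-0.91), CXCL3 (-0.85), BMP7 (-0.34) and LYZ (-0.27). Among genes that fell, the fall was larger under RMC-6236 for H19 (-0.77), MEST (-0.60), PRSS2 (-0.50), FOSB (-0.32) and PFKFB4 (-0.22). It was smaller for CASC19 (0.46), SEMA7A (0.45), FOS (0.44), DUSP1 (0.30) and LFNG (0.24). VCAM1 fell with tazemetostat alone and was 0.10 log2 units higher in the combination than with RMC-6236 (interaction 0.97).

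In SW1990 cells 3 of these genes moved the opposite way with no overlap between the arms, a difference between the lines that was not tested. Lack of overlap was the rule that picked them, and its share over all genes in SW1990 cells is not given here. In PSN1 27.8% of all genes tested lay wholly higher and 27.7% wholly lower, so 3 such genes need not stand out. CXCL5, which rose in PSN1, fell by 0.47 log2 units in SW1990 cells. PRSS2 rose there by 1.17, from 0.0115 to 1.27 FPKM, and H19 by 0.15, from 18.5 to 20.6 FPKM.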

How the results depend on the processing

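A pseudocount of 0.1 raised the number of genes called at 2-fold or more from 229 to 623 higher and from 10 to 36 lower, because a smaller constant compresses low values less. Leaving out 1 library at a time gave 5363 to 6145 genes called, 2821 to 3164 higher and 2473 to 3005 lower, with 222 to 240 higher and 9 to 10 lower at 2-fold or more. No strong pairing by replicate number was seen: deviations of same-numbered control and tazemetostat libraries correlated at 0.133, 0.0557 and -0.0243. The best-matching tazemetostat library had the same number for controls 1 and 2, and number 2 for control 3, so a weak pairing cannot be told from none. With the replicate block 3122 genes were higher and 2901 lower. Higher calls were 51.2% of all calls as reported, 44.4% after rescaling by the median ratio and 59.1% with no filter. Of 269 called genes followed through these alternatives none changed direction, and RELA, KDM6A, CD14, CREBBP, ENO1 and LDHA lost the call under at least 1. IRF1, DUSP6, SPRY4, EPSTI1 and ATF4, not called as reported, were called under at least 1. Rescaling moved the median of all genes tested to -0.0248. The medians of the PRC2, imprinted, BCL2 family, basal-like, nucleic acid sensor, immediate early, endothelial and fibroblast lists changed sign or reached 0 under at least 1 alternative. FPKM keep no counts, so the precision of low values rests on 3 libraries per arm.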

Other observations

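The genes given here were picked because they rose, so they say nothing of how many genes of a pathway did not. CRABP1, a cytosolic binding protein for retinoic acid, was listed at 0 in all 3 control libraries and at 1.98, 1.66 and 1.66 FPKM with tazemetostat. CRABP2 went from 2.24, 2.99 and 2.29 FPKM to 7.81, 6.25 and 6.69 FPKM (1.18 ± 0.11 log2 units, limma adjusted p = 4.0e-06). CYP26B1, which degrades retinoic acid, rose by 1.44 ± 0.05, the retinol carrier RBP4 by 1.32 ± 0.09, the retinoid-responsive RARRES1 by 1.06 ± 0.11 and ALDH1A3, which makes retinoic acid, by 0.78 ± 0.03. ALDH1A3 went the other way beside RMC-6236, from 19.9 to 14.5 FPKM (-0.43, interaction -1.21). Without RMC-6236 the arms overlapped in none of these 6 genes of retinoid handling, which follows largely from picking genes that rose. Over all genes tested 27.8% lay wholly higher with tazemetostat. DIO3, which inactivates thyroid hormone, rose from 0.262 ± 0.065 to 2.88 ± 0.25 FPKM (1.62 ± 0.08).

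ALB (albumin) went from 23.8, 23.7 and 23.6 FPKM to 64.8, 67.3 and 69.1 FPKM (1.46 ± 0.02, limma adjusted p = 4.2e-13), and A2M (alpha-2-macroglobulin) from at most 0.0161 FPKM in control to 2.18, 2.31 and 2.40 FPKM. Of 13 clade B serpins, a list added after the values were seen, 6 were below the filter. Of the 7 tested, 5 rose (71.4%, against 23.6% of all genes tested) and none fell. SERPINB4 and SERPINB3, near-identical inhibitors of proteases, were listed at 0 in every control library, with SERPINB4 at 2.15, 2.95 and 2.84 FPKM and SERPINB3 at 1.03, 0.962 and 0.920 FPKM after tazemetostat. Both thus passed the filter only through libraries other than control. SERPINB3 did not reach 1 FPKM in every tazemetostat library, so it also needed libraries given RMC-6236 or the combination. The neuropeptide precursor VGF rose from 4.13 ± 0.25 to 23.7 ± 0.42 FPKM (2.27 ± 0.06).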
